A study of Mus musculus with 4 samples.

Results

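The G1 cyclins, the kinases Cdk4 and Cdk6 and the Cdk inhibitors form the core of the switch that commits a cell to DNA synthesis. The members were the 10 rows of the deposited table whose upper-case symbol was CCND1, CCND2, CCND3, CCNE1, CCNE2, CDK4, CDK6, CDKN1B, CDKN2A or CDKN2B; mouse spelling (Ccnd1) is used from here on. All 10 were found, each on a single row, among 29871 rows with distinct symbols. RNA came from small-intestinal adenomas of mice. The control group (2 libraries) had the genotype APC Min/+, in which 1 copy of the tumour suppressor gene Apc carries a truncating mutation. The PAF knockout group (2 libraries) had the genotype PAF KO; APC Min/+, so both groups shared the Apc mutation. PAF stands for PCNA-associated factor, the product of Pclaf, as known from the study's field. The sources used here do not give age, sex, strain background or the altered part of the PAF gene. Nor do they say whether a library came from 1 adenoma, 1 mouse or a pool, so p-values measure only the spread between these samples, which may be technical.

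D-type cyclins are made in response to growth signals and bind Cdk4 or Cdk6. The complexes phosphorylate the retinoblastoma protein, which frees E2F transcription factors to switch on genes for S phase, among them the E cyclins that activate Cdk2. The INK4 inhibitors p16 (from Cdkn2a) and p15 (from Cdkn2b) bind Cdk4 and Cdk6 and keep D cyclins off them, while p27 (from Cdkn1b) blocks cyclin E-Cdk2. In the intestine, loss of Apc activates Wnt signalling and with it crypt-like proliferation, and Ccnd1 and Ccnd2 are well-known proliferation genes of that tissue.

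Promoter sequences from RefSeq (assembly GRCm38.p6) matched 7 of the 10 members, with 9 windows of 300 bases that each run from 250 bases before to 50 bases after an annotated start. There was no entry for Ccnd1, Ccnd2 or Ccne2. Of the members whose levels did not overlap between the groups, Cdk4, Ccnd3 and Cdkn2b had windows. Cdk4 is shown because its window held the most copies of an E-box, a choice made after the search, and Cdk6 as its sister kinase, with capitals marking the letters CACGTG, the E-box that Myc-type factors bind. Both windows of Cdkn2a are shown because the gene has a pair of starts and makes a pair of unrelated proteins (p19Arf from the upstream start and p16 from the downstream start) that share 1 row of the table. In these windows capitals mark TTTNNCGC or its reverse complement, a loose E2F-type motif in which N is any base. The windows lie at chr10:127063285-127063584 (Cdk4, plus strand), chr5:3343643-3343942 (Cdk6, plus strand), chr4:89294570-89294869 (Cdkn2a upstream, minus strand) and chr4:89282143-89282442 (Cdkn2a downstream, minus strand).
Cdk4: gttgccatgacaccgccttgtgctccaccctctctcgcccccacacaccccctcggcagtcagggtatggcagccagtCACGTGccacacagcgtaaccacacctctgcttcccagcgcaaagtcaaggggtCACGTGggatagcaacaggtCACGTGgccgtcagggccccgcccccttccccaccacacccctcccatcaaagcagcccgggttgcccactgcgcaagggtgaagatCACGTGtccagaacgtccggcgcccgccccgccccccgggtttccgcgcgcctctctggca
Cdk6: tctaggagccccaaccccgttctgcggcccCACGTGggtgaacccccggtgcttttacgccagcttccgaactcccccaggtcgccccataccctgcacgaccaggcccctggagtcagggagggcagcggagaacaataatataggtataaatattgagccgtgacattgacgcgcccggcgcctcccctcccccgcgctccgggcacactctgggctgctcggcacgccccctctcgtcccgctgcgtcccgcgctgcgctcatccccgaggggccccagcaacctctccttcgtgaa
Cdkn2a upstream start: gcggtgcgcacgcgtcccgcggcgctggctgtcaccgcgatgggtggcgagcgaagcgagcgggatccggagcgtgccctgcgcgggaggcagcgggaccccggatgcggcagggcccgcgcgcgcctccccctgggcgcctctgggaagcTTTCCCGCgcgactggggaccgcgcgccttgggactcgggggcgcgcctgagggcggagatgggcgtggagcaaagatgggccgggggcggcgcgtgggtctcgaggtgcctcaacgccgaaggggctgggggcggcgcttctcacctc
Cdkn2a downstream start: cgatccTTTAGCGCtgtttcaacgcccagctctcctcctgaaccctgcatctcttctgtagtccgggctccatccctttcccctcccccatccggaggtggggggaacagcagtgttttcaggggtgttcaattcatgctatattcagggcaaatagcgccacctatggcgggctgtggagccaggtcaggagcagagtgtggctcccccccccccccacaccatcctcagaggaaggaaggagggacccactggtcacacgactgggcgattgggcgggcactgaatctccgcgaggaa

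The Cdk4 window held 4 copies of CACGTG, which begin at positions -172, -118, -98 and -11 from the start. At least 1 copy was present in 7.15% of 32851 promoter windows of the same length, and 4 or more in 0.0244% (8 windows). The Cdk6 window held 1 copy, at position -220, and none was found in the other 7 member windows, those of Ccnd3 and Cdkn2b included. The E2F-type motif, present in 5.17% of all windows, was found at position -99 of the upstream Cdkn2a window, at position -244 of the downstream Cdkn2a window and at position -198 of the Cdk6 window. The TCF-type motif CTTTGNT, searched on both strands, was found in 18.6% of all windows and, among members, at position -52 of Cdk4 and position -30 of the upstream Cdkn2a window. The GC box GGGCGG, also searched on both strands, was found in 35.7% of all windows and in every member window except that of Cdk6. No match overlapped a match to another of these 4 motifs, and a match is only an agreement of letters.

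Levels are in FPKM, which are fragment counts scaled to transcript length and to library size. How library size was taken is not stated in the sources used here. Library depth, estimated from the smallest steps in the values, was about 13000000, 17100000, 15600000 and 23600000 fragments for control 1, control 2, knockout 1 and knockout 2. The estimate takes library size as the mapped total, and the range searched set bounds on it in advance. In the row of PAF itself, 2810417H13Rik, the controls had 17.9 and 17.8 FPKM against 4.13 and 11.4 FPKM in the knockouts, or 0.23 and 0.64 times the control mean. That difference did not pass the test (log2 difference -1.24, SE 0.484; limma adjusted p = 0.398), and the library labelled knockout 2 kept more of the transcript than knockout 1. Which stretch of PAF the allele removes is not stated in the labels, so this row is a limited check of them. Knockout library 2 also stood apart in sex-linked genes: it held Xist at 46.4 FPKM and the Y-linked Eif2s3y was listed at 0. The other 3 libraries held Eif2s3y at 26.0 to 31.7 FPKM and Xist at 0.0086 FPKM or less. The knockout libraries were therefore not repeats of the same RNA, and the part of sex in the results below was not tested. Epithelial markers (Epcam, Cdh1, Vil1 and 4 keratins) were high in every library, with sums of 6724 to 7911 FPKM. Smooth muscle markers (7 genes) summed to 228 and 227 FPKM in the controls against 270.4 in knockout 1 and 812 in knockout 2. In knockout 1 Actg2 was below the controls (26.5 FPKM against 43.2 and 41.7), and the rest of that list was above them. Fibroblast markers (7 genes) summed to 272, 275, 345 and 698 FPKM in the same order of libraries, and absorptive enterocyte markers (8 genes) to 7729, 8316, 12108 and 899 FPKM. The members of that enterocyte list did not go together in knockout 1, where Fabp1 (2367 against 49.7 and 50.4 FPKM in the controls) and Apoa4 (3251 against 948 and 972) were above the controls and Sis (71.8 against 180.4 and 171) and Anpep (259 against 708 and 720) were below. Endothelial markers (6 genes) summed to 57.3, 58.0, 68.8 and 79.1 FPKM. Of these, Cdh5 was lower in both knockouts (25.9 and 12.4 FPKM against 26.3 and 27.6 in the controls), and the other 5 were higher. The part of all these markers in the results below was not tested. In bulk RNA fewer cells of a type and less RNA per cell cannot be told apart.

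No member passed the test between genotypes. With limma on log2(FPKM + 1), adjusted p-values of the 10 members ranged from 0.432 to 0.897, and 0 members were called, where 0.0729% of 13716 tested rows were. At an unadjusted p under 0.05 there were also 0 members, where 13.2% of all tested rows passed (3.44% higher and 9.76% lower). The median log2 difference (knockout minus control) was 0.034 over the members and 0.0035 over all tested rows. Ccnd2 and Ccnd3 had both knockout values above both control values, Cdk4 and Cdkn2b had both below, and the other 6 members overlapped. Of all tested rows, 51.7% did not overlap (21.5% higher and 30.2% lower), so 4 of 10 is close to the background.

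**Figure D1:**
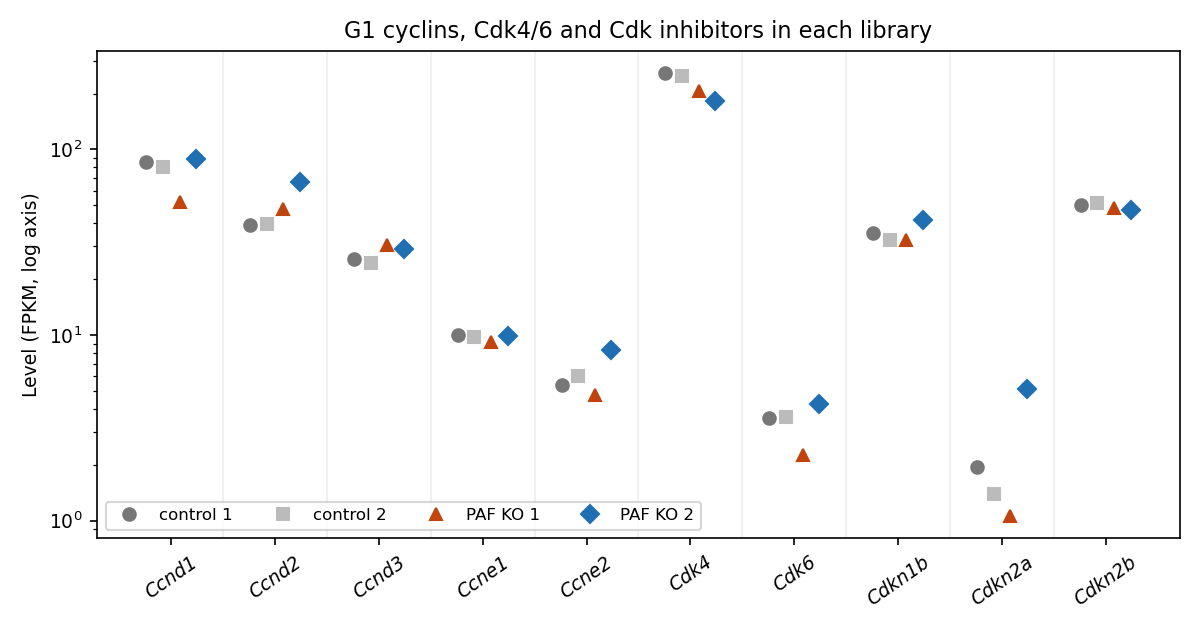
Level of each member (FPKM, log axis) in the 4 libraries, 1 point per library. Control points lie close together for most genes and part most for Cdkn2a (1.93 and 1.38 FPKM). Cdk4 is the highest member in every library, and the knockout points also part most for Cdkn2a, at 1.06 and 5.09 FPKM.

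The members spanned a wide range of transcript levels. In the control libraries the order was Cdk4 (mean 254 FPKM), Ccnd1 (82.9), Cdkn2b (50.8), Ccnd2 (39.3), Cdkn1b (34.0), Ccnd3 (25.1), Ccne1 (9.84), Ccne2 (5.68), Cdk6 (3.61) and Cdkn2a (1.66). No neighbours in that order overlapped between the control libraries. In the knockout libraries the ranges of Ccnd1 and Ccnd2 overlapped, as did those of Ccnd2 and Cdkn2b, of Ccne2 and Cdkn2a, and of Cdk6 and Cdkn2a. Cdk4 ranked above 97.6% of the tested rows by its mean FPKM and Cdkn2a above 12.7%.

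Among the D cyclins, Ccnd1 lay on opposite sides of the controls in the knockout libraries. Ccnd1, the cyclin D most often tied to Wnt signalling, read 85.1 and 80.7 FPKM in the controls against 52.0 in knockout 1 and 88.8 in knockout 2. Knockout 1 was thus below both controls and knockout 2 above both. The log2 difference between groups was -0.28 (SE 0.317, 95% interval -1.18 to 0.62, n = 2 per group; limma adjusted p = 0.673). Without knockout 1 it was 0.10, and without knockout 2 it was -0.66.

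Ccnd2 was the member with the smallest p. Ccnd2, a D cyclin whose product can replace cyclin D1 at Cdk4, read 39.0 and 39.6 FPKM in the controls against 47.9 and 67.1 in the knockouts. Both knockout values lay above both control values, and they were 1.22 and 1.71 times the control mean. The log2 difference was 0.52 (SE 0.229, 95% interval -0.13 to 1.17; limma adjusted p = 0.432). It was 0.76 without knockout 1 and 0.28 without knockout 2. The library with the higher value, knockout 2, also had the highest fibroblast, smooth muscle and mitotic marker sums (mitotic 390.1 FPKM against 253 to 279.9 in the other libraries) and the lowest enterocyte sum, and their part in the Ccnd2 values was not tested.

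Ccnd3, the D cyclin prominent in lymphocytes and differentiating cells, read 25.8 and 24.3 FPKM in the controls against 30.6 and 29.1 in the knockouts. The knockout libraries were close to each other and both above the controls, at 1.22 and 1.16 times the control mean. Between groups, the log2 difference was 0.25 (SE 0.152, 95% interval -0.18 to 0.68; limma adjusted p = 0.523). Lymphocyte markers (10 genes) summed to 14.2 and 17.0 FPKM in the controls against 8.02 in knockout 1 and 22.5 in knockout 2. Within that list Cd3e (0.82 and 1.04 FPKM against 1.68 and 2.31 in the controls) was lower in both knockouts and Cd79a (2.06 and 4.37 against 1.23 and 1.66) was higher in both, and their part in the Ccnd3 values was not tested.

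The shares of Ccnd1 and Ccnd2 in the D cyclin pool did not overlap between the groups, while the pool's sum did. Summed D cyclin levels were 150 and 145 FPKM in the controls against 131 and 185 in the knockouts. Ccnd1 made up 56.8% and 55.8% of that sum in the controls, 39.9% in knockout 1 and 48.0% in knockout 2, and Ccnd2 made up 26.0% and 27.4% against 36.7% and 36.3%. The ratio of Ccnd1 to Ccnd2, which does not depend on how a library was scaled, was 2.18 and 2.04 in the controls against 1.09 and 1.32 in the knockouts. The ratio was therefore lower in both knockouts, by 0.81 on the log2 scale as a mean. An exact 2-sided permutation test gave p = 0.333, the smallest p that 2 libraries against 2 allow (0.833 adjusted over 5 ratios of members). The ratios were chosen after the values were seen.

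**Figure D2:**
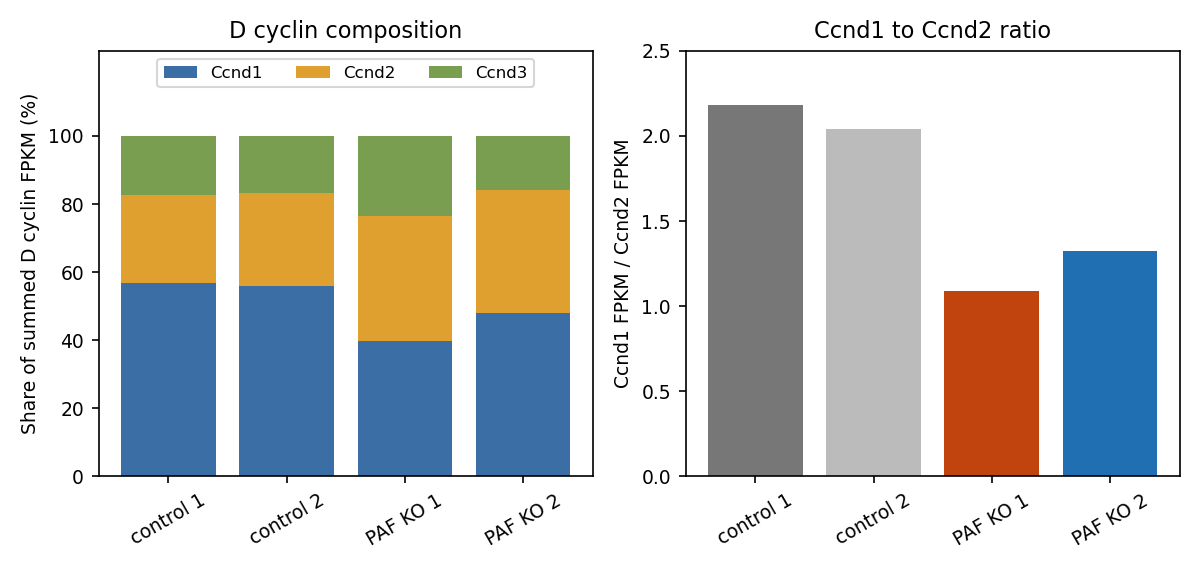
Left, share of each D cyclin in the summed D cyclin FPKM of a library (percent, stacked bars); right, ratio of Ccnd1 to Ccnd2 FPKM, 1 bar per library. Ccnd1 holds 56.8% and 55.8% in the controls against 39.9% and 48.0% in the knockouts, and the ratio is 2.18 and 2.04 against 1.09 and 1.32.

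The E cyclins, partners of Cdk2 at the start of S phase, were at lower levels than the D cyclins. Ccne1 read 9.98 and 9.71 FPKM in the controls against 9.18 and 9.88 in the knockouts. These 4 values lay within a narrow band, with a log2 difference of -0.043 (SE 0.154, 95% interval -0.48 to 0.39; limma adjusted p = 0.897), whose sign turned under quantile scaling and median centring. Ccne2 read 5.37 and 6.0 FPKM in the controls against 4.75 in knockout 1 and 8.26 in knockout 2. It was lowest in knockout 1 and highest in knockout 2, as Ccnd1 was, and its log2 difference was 0.13 (SE 0.298; limma adjusted p = 0.835). That value was 0.47 without knockout 1 and -0.21 without knockout 2. The ratio of Ccne1 to Ccne2 was 1.86 and 1.62 in the controls against 1.93 in knockout 1 and 1.20 in knockout 2.

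Of the kinases, Cdk4 lay lower in both knockout libraries. Cdk4 read 258 and 249 FPKM in the controls against 207 and 183 in the knockouts, which were 0.82 and 0.72 times the control mean. The groups did not overlap, and the gap between the knockout libraries was smaller than the gap between the groups. The fitted log2 difference was -0.38 (SE 0.185, 95% interval -0.90 to 0.14; limma adjusted p = 0.454), and 24.2% of tested rows had a lower one. Without knockout 1 the difference was -0.47, and without knockout 2 it was -0.29.

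Cdk6, which shares the D cyclins with Cdk4, was a minor transcript in these adenomas. Cdk6 read 3.59 and 3.62 FPKM in the controls against 2.25 in knockout 1 and 4.27 in knockout 2. The controls were nearly equal and the knockouts lay on either side of them. The log2 difference was -0.16 (SE 0.307, 95% interval -1.03 to 0.71; limma adjusted p = 0.802), and it was 0.19 without knockout 1 and -0.51 without knockout 2. Cdk6 made up 1.07% to 2.28% of the summed Cdk4 and Cdk6 FPKM over the 4 libraries. The sum itself was 262 and 253 FPKM in the controls against 209.6 and 187 in the knockouts.

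**Figure D3:**
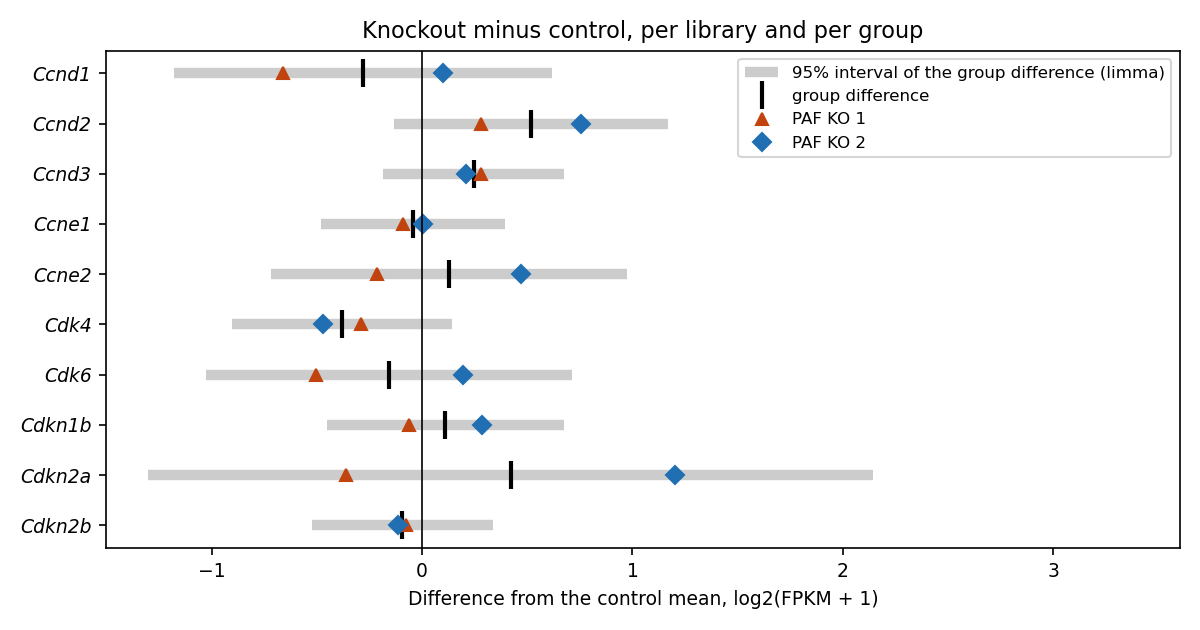
Difference of each knockout library from the control mean on the log2(FPKM + 1) scale, with the group difference (bar) and its 95% interval from limma (grey). Each grey interval crosses 0; the knockout libraries lie on the same side of 0 for Ccnd2, Ccnd3, Cdk4 and Cdkn2b and on opposite sides for the other 6 members.

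The INK4 inhibitors differed from each other in level and in spread. Cdkn2b, which encodes p15, an inhibitor of Cdk4 and Cdk6 known for its induction by TGF-beta, read 50.02 and 51.6 FPKM in the controls against 48.2 and 46.9 in the knockouts. The knockout values were lower than the controls by a margin of a few FPKM, at 0.95 and 0.92 times the control mean. Between groups, the log2 difference was -0.09 (SE 0.152, 95% interval -0.52 to 0.34; limma adjusted p = 0.762). Relative to Cdkn2b, Cdk4 read 5.16 and 4.83 in the controls against 4.30 and 3.90 in the knockouts (exact permutation p = 0.333, 0.833 adjusted over the 5 ratios).

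Cdkn2a, the gene of p16 and p19Arf and a widely used marker of senescence, was near the floor of the tested rows. Cdkn2a read 1.93 and 1.38 FPKM in the controls against 1.06 in knockout 1 and 5.09 in knockout 2. With the longest coding transcript of 895 bases these values correspond to about 22, 21, 15 and 108 fragments. Knockout 2 was 3.07 times the control mean, and knockout 1 was 0.64 times. The fitted log2 difference was 0.42 (SE 0.609, 95% interval -1.30 to 2.14; limma adjusted p = 0.735). Without knockout 1 it was 1.20 and without knockout 2 it was -0.36. The row does not separate the transcripts of p16 and p19Arf.

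Cdkn1b, the gene of p27, read 35.5 and 32.6 FPKM in the controls against 32.6 in knockout 1 and 41.6 in knockout 2. Knockout 1 was level with the lower control, and knockout 2 was above both. The log2 difference was 0.11 (SE 0.198, 95% interval -0.45 to 0.67; limma adjusted p = 0.784), and without knockout 2 it was -0.061. The amount of p27 protein is known to be set largely by its turnover, which RNA does not show. The sum of the 3 inhibitors among the members was 87.5 and 85.6 FPKM in the controls against 81.8 and 93.6 in the knockouts.

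For most members the knockout libraries differed from each other more than the controls did. The median absolute log2 difference between the knockout libraries was 0.41 over the members and 0.49 over all tested rows, whereas between the controls it was 0.063 and 0.088. The knockout gap was the larger for 8 of 10 members, as it was for 86.5% of tested rows. Knockout 2 was above knockout 1 for 7 of 10 members, where 61.8% of tested rows were. Knockout 1 was below both controls for 8 members, where 56.2% of tested rows were, and knockout 2 was above both for 7, where 51.3% were. For 6 members, Ccnd1, Ccne1, Ccne2, Cdk6, Cdkn1b and Cdkn2a, the knockout libraries lay on opposite sides of the control mean, where 39.1% of tested rows did. With knockout 1 left out, limma called 4 members (Ccnd2, Ccne2 and Cdkn2a higher, Cdk4 lower) beside 8397 of all rows. With knockout 2 left out it called 1 (Ccnd1, lower) beside 2833. In these fits the lone knockout library is assumed to vary like the controls.

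Patterns over the libraries were compared among the members and 68 tested genes of 7 lists of G1/S genes, by the root mean square difference of log2 values centred on each gene's mean. Over these 4 libraries Cdk4 was nearest to Cdt1, a licensing factor of replication origins (0.019), and Cdkn1b to Rbl1, a relative of the retinoblastoma gene (0.027). Ccnd2 was nearest to Ccna2 (0.042) and Cdc45 (0.044), genes of cyclin A2 and of the replicative helicase. Ccnd1 was nearest to Rnf2 (0.055), and Cdk6 to Ccnd1 (0.073). Cdkn2a had no neighbour closer than Skp1a (0.092), and Ccnd3 none closer than Cdk2 (0.091). Cdkn2b and Ccne1 were both nearest to E2f1 (0.030 and 0.041), and Ccne2 to Rbx1 (0.062). Each neighbour is the closest of 77 candidates over 4 libraries, so small distances can arise without a link between genes. No distance was tested.

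The other Cdk inhibitors lay lower or split between libraries. Of 4 genes, 3 were tested and 0 were called. Cdkn1a, the gene of p21 and a p53 target, read 139 and 154 FPKM in the controls against 132 in knockout 1 and 53.0 in knockout 2. Cdkn1c, the gene of p57, read 59.3 and 42.9 FPKM against 28.1 and 16.0, with a log2 difference of -1.21 (SE 0.357; limma adjusted p = 0.333). Of the tested Cdk inhibitors, members included, only Cdkn1c had an unadjusted limma p under 0.05. Its groups did not overlap, and neither did those of Cdkn1a and Cdkn2b, all lower in the knockouts. Over all tested rows, 13.2% had such a p and 51.7% did not overlap. Cdkn2c, the gene of the INK4 protein p18, read 9.05 and 7.97 FPKM in the controls against 7.51 in knockout 1 and 15.6 in knockout 2, and Cdkn2d was at most 2.13 FPKM and was not tested.

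The substrates and outputs of the G1 kinases were examined next. The pocket proteins, which Cdk4, Cdk6 and Cdk2 phosphorylate, had 3 tested genes with overlapping groups. Rb1 read 10.5 and 9.75 FPKM in the controls against 10.1 and 11.7 in the knockouts, Rbl1 had a log2 difference of 0.13 (SE 0.213) and Rbl2 of -0.007 (SE 0.217). Among 10 E2F and DP genes, 1 was higher in both knockouts and 2 were lower in both. Of all tested rows, 21.5% were higher in both and 30.2% were lower in both. E2f2, an activating E2F, read 5.84 and 5.71 FPKM in the controls against 9.99 and 8.78 in the knockouts (log2 difference 0.61, SE 0.165; limma adjusted p = 0.319). E2f3, another activating E2F, read 11.6 and 11.4 against 9.98 and 6.56 FPKM, and E2f5 had a log2 difference of 0.27 (SE 0.240).

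E2F target genes of S phase entry (22 tested) had a median log2 difference of 0.27, made up of 0.025 in knockout 1 and 0.58 in knockout 2. For comparison, all tested rows had medians of -0.11 and 0.087 in these libraries. Of the 22 genes, 9 were higher in both knockouts, 3 were lower and 10 overlapped, and 0 were called. Over all tested rows, 21.5% were higher in both and 30.2% were lower in both. Tk1, a thymidine kinase that salvages thymidine, read 9.48 and 10.99 FPKM in the controls against 17.1 and 22.3 in the knockouts (log2 difference 0.87, SE 0.209; limma adjusted p = 0.297). Rrm2, a subunit of ribonucleotide reductase, read 23.0 and 21.6 against 29.7 and 33.6 FPKM. Markers of mitotic cells (10 genes) summed to 258 and 253 FPKM in the controls against 279.9 in knockout 1 and 390.1 in knockout 2. In knockout 2 Plk1 was below the controls (33.5 FPKM against 41.9 and 41.1), and the rest of that list was above them. Cdk2 itself read 20.7 and 18.5 FPKM against 21.0 and 23.5, its partner Ccna2 37.5 and 39.6 against 49.7 and 65.3, and Ccnh, the cyclin of the Cdk-activating kinase, 33.0 and 35.9 against 30.2 and 28.3. The Cdk2 list (7 tested genes) had a median of 0.086 and 0 calls.

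**Figure D4:**
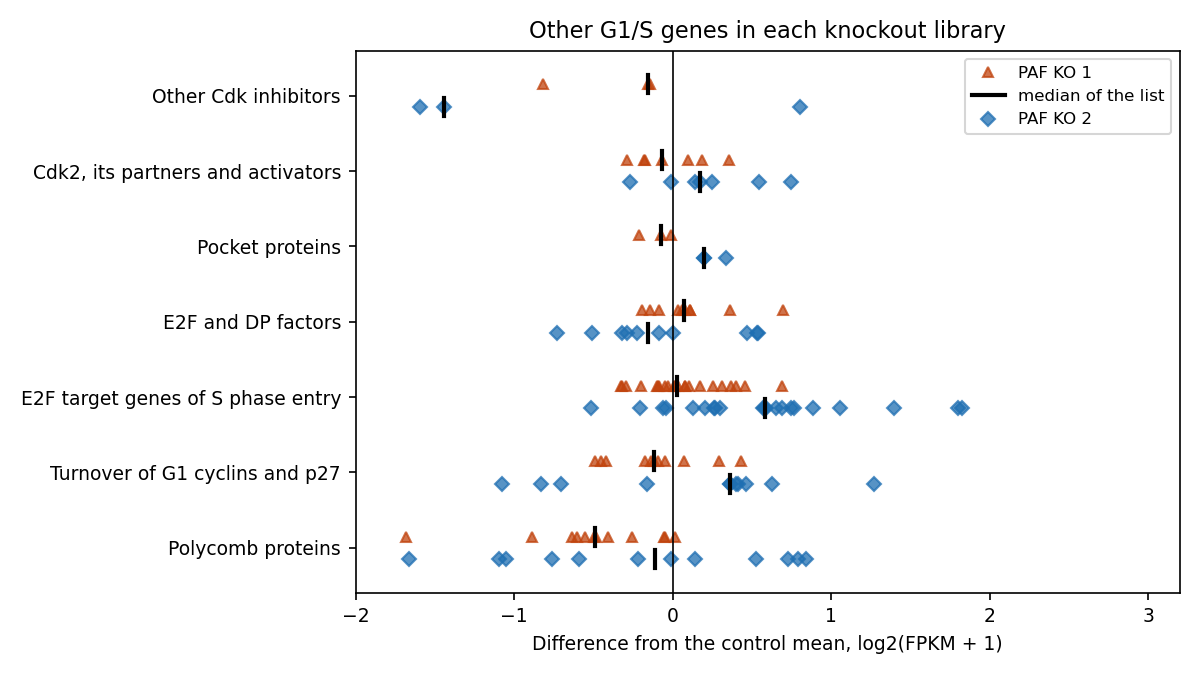
Difference of each knockout library from the control mean, log2(FPKM + 1), for the tested genes of 7 G1/S lists, 1 point per gene and library, with the list median as a bar. The E2F target medians are 0.025 and 0.58 in knockouts 1 and 2, and the Polycomb medians are -0.49 and -0.11.

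Genes that set the stability of G1 cyclins and p27 lay on both sides of the controls, with none past the test. Of 11 tested genes, 2 were higher in both knockouts, 3 were lower in both and 6 overlapped, with a median of 0.11 and 0 calls. The shares over all tested rows were 21.5% higher and 30.2% lower. Ambra1, an adaptor of the ubiquitin ligase that degrades D cyclins, read 17.2 and 16.4 FPKM in the controls against 11.7 and 9.0 in the knockouts (log2 difference -0.66, SE 0.194; limma adjusted p = 0.331). Fbxo31, an F-box protein also linked to cyclin D1 turnover, read 10.5 and 8.15 against 6.65 and 5.29 FPKM. Skp2, the F-box protein that marks p27 for degradation, read 4.92 and 4.19 against 6.46 and 6.36 FPKM.

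Polycomb genes were listed because Polycomb complexes are known to silence Cdkn2a. Of 12 tested genes, 5 were lower in both knockouts, 7 overlapped and 0 were called, with a median of -0.28. Bmi1, Ezh2, Suz12 and Eed, which overlapped, read 1.79, 1.46, 1.83 and 1.69 times the control mean in knockout 2. In knockout 1 they read 0.69, 0.74, 0.97 and 0.96 times. The remaining overlapping genes, Rnf2, Cbx8 and Ezh1, read 1.11, 0.99 and 0.85 times the control mean in knockout 2. In knockout 1 these read 0.62, 0.60 and 1.01 times. Cbx6 had the smallest p of any gene in these lists and read 29.2 and 30.01 FPKM in the controls against 8.54 and 8.66 in the knockouts (log2 difference -1.67, SE 0.147; limma adjusted p = 0.175). Cbx2 read 8.29 and 6.82 against 3.61 and 3.12 FPKM. These CBX proteins read the histone mark that Polycomb places. Over the 7 lists together 0 of 68 tested genes were called, 10 passed an unadjusted p of 0.05 (4 above and 6 below the controls), and 14 were higher and 16 lower without overlap. By the background given above, 13.2% of rows had such a p, and 51.7% did not overlap (21.5% higher and 30.2% lower).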

How the data were processed

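The members and gene lists were chosen with earlier results of these data known. The authors deposited 1 table of FPKM values with a column per library, and the submitters' processing notes name mm9 as the build and TopHat2 and Cuffdiff as tools, without roles. For versions, settings and annotation, nothing is given in the sources used here. Rows with a repeated symbol (84 of 29955) were reduced to the row of higher mean. Testing covered rows whose 4-library mean reached 1 FPKM and used log2(FPKM + 1) values in limma 3.58.1 under R 4.3.3, with variances moderated along a trend on mean expression and Benjamini-Hochberg adjustment over 13716 rows, at a threshold of 0.05. Differences on this scale understate changes of low genes. The fitting step was run on simulated data that gave each gene the same spread in both groups, unlike these libraries. That check required only the right direction for large added changes. Named genes were the 10 members, the PAF row, the 3 rows of smallest p in each G1/S list (all rows of lists of up to 4; a few such rows are not reported here) and the nearest patterns of members. Other genes are named as markers, and a few Polycomb genes are named beside those of smallest p. Fragment numbers are approximate: the commonest small product of FPKM and length, over genes with 1 GENCODE transcript, was counted as 1 fragment. Only products from 0.03 to 0.1 (FPKM times kilobases) were searched, and the commonest value rested on 29 to 41 genes per library. Promoter letters and their coordinates are on GRCm38.p6, not on mm9. Alternatives were 2 other pseudocounts, no filter, a filter at 5 FPKM, quantile scaling, median centring, no variance trend, a replicate block and leaving out each library.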

Additional observations from a re-analysis of the deposited data

How the results depend on the processing

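Over 414 values of single genes under alternatives, 371 kept direction and call, 28 became calls in the same direction and 15 turned. Filters, the variance trend and replicate blocks leave a gene's difference as it was, so its direction could not turn there. The 28 calls all came from fits that left out a knockout library. The replicate block gave 13 called rows and 0 called members. Deviations of same-numbered libraries had a correlation of -0.11 across genes, and crossed numbers, added after the data were seen, gave 13 called rows. With no filter 4 rows were called. With each library left out in turn, called rows ranged from 0 (without either control) to 8397, called members from 0 to 4, called genes of the G1/S lists from 0 to 42, and the members' median difference from -0.15 to 0.20. Quantile scaling and median centring turned Ccne1 (0.013 and 0.015) and Rbl2 (0.051 and 0.051). With each library left out, differences that turned ranged from -0.66 to 0.099 for Ccnd1, -0.090 to 0.0054 for Ccne1, -0.51 to 0.19 for Cdk6 and -0.21 to 0.197 for Rbl2, with the upper value always without knockout 1, and Rbl2 also turned without control 1 (0.058). They ranged from -0.21 to 0.47 for Ccne2, -0.061 to 0.28 for Cdkn1b, -0.36 to 1.20 for Cdkn2a, -0.16 to 0.80 for Cdkn2c, -0.0078 to 0.20 for Rb1 and -0.073 to 0.34 for Rbl1, with the lower value always without knockout 2. The cause was not tested. With 2 libraries per group, the width of the intervals limits what can be seen, and Cdkn2a is also limited by its few fragments.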
